A study of Mus musculus with 24 samples.

Results

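Opioid receptors are G protein-coupled receptors of neurons that couple to inhibitory Gi/o proteins, through which they lower cAMP, open inwardly rectifying potassium channels and close presynaptic calcium channels. Their peptide ligands are cut from large precursor proteins: enkephalins from the product of Penk, dynorphins from that of Pdyn and nociceptin from that of Pnoc, while the receptors are the mu (Oprm1), delta (Oprd1), kappa (Oprk1) and nociceptin (Oprl1) receptors. Npbwr1 encodes a receptor for neuropeptides B and W that belongs to the same branch of the receptor family, close to the opioid and somatostatin receptors. Trimethylation of lysine 4 of histone H3 (H3K4me3) marks the promoters of active genes and, more weakly, promoters that are poised.

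The 8 genes were chosen by name, and a deposited peak region was taken for a gene where it overlapped at least 1 transcription start site (TSS) annotated for it in GENCODE M1 on mm9. The regions are peaks called from H3K4me3 in these same libraries, so that the presence of the mark in a region was used to choose it and is not a finding. The rule that assigns regions to genes reads no contrast between groups, but the genes themselves were chosen with earlier results of these data known, so their calls are not those of a blind choice. Of the 8 genes, 7 had a TSS region and each of these had exactly 1, out of 17993 regions in all, of which 13404 overlapped a TSS. Pnoc had no region. H3K4me3 was measured by single ChIP-Seq, with the anti-H3K4me3 antibody alone, and by tandem ChIP-Seq (tChIP-Seq), in which chromatin carrying a FLAG-tagged histone H2B was first isolated with an anti-FLAG antibody and the eluate was then precipitated for H3K4me3. The 12 H3K4me3 libraries form 4 groups of 3, and the other 12 samples of the series, input and FLAG libraries, were not analysed here.

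All mice were of strain C57BL/6, carried H2B-FLAG behind the CAG promoter at the Rosa26 locus, and gave cerebral cortex, with tissue of 2 animals pooled for each lysate. In the Rosa line (labelled Rosa CAG-H2B-FLAG, heterozygous, derived by a cross to Vasa-Cre), the tag is expressed ubiquitously. These mice received no tamoxifen that the sources used here mention, and their exact age is not given there. In the Camk2a line (Rosa26 CAG-floxed-pA-H2B-FLAG with CaMKCreERT2, double-heterozygous males), Cre acts only in Camk2a-positive neurons and only after tamoxifen, which was injected at 1 mg per day for 5 days from 8 weeks of age, 1 month before the animals were killed. The lines thus differ in tamoxifen and in Cre driver as well as in the tagged cells. The methods state the sex for the Camk2a line alone, so whether the lines also differ in sex or age is not known here. Neurons without Camk2a, which include most cortical interneurons, and glia are not targeted by the tag in this line, although their marker genes were not at 0 in its tChIP-Seq libraries. In such bulk chromatin, fewer cells of a type and less of the mark per cell cannot be told apart.

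The total count per library was 6316125 to 8644574 in Rosa single ChIP-Seq, 1457261 to 1828371 in Rosa tChIP-Seq, 4063200 to 4233144 in Camk2a single ChIP-Seq and 2709729 to 3049130 in Camk2a tChIP-Seq. Chi-square per degree of freedom between replicates ranged from 1.03 to 1.09, and no pair of libraries was identical. Of 8 markers of cortical excitatory neurons, 7 had a TSS region (Tbr1 had none). Their summed density in Rosa single ChIP-Seq libraries ranged from 196 to 201 CPM (counts scaled to a common library size) per kb of region width. The sums were 68.5 to 70.1 for 6 astrocyte, 58.7 to 64.8 for 6 endothelial and 115 to 118 for 7 oligodendrocyte markers. They were 92.6 to 96.8 for 9 striatal and 81.0 to 86.9 for 9 inhibitory neuron markers, and 5.94 to 9.10 for 1 microglial marker. These sums cover unlike numbers of regions and do not measure cell content.

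The 7 TSS regions lie at the 5′ ends of the genes. The Oprm1 region (chr10:3557203-3558204, 1002 bp) holds 9 of its 11 annotated TSSs, and the other 2 lie 29744 and 29831 bp away, outside any region. The Oprd1 region (chr4:131699268-131700967, 1700 bp) and the Npbwr1 region (chr1:5906741-5907858, 1118 bp) hold the only TSS of their genes, and the Oprl1 region (chr2:181449213-181451082, 1870 bp) holds all 12 TSSs of its gene. The Oprk1 region (chr1:5578547-5579313, 767 bp) holds 3 of 4 TSSs and the Pdyn region (chr2:129525224-129525710, 487 bp) holds 2 of 3. The Penk region (chr4:4065058-4066405, 1348 bp) holds both TSSs of Penk and the TSS of the long noncoding RNA gene A830012C17Rik on the other strand, and its reads cannot be divided between these genes. All 7 overlap exons of their gene, and all but that of Pdyn overlap coding exons as well. Oprk1 and Npbwr1 are neighbours on chromosome 1, 307575 bp apart. Compared with the median region of 1774 bp, the Oprl1 region was wider and the other 6 were narrower, with Pdyn at percentile 6.8 of width.

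Another 2 regions lie within the bodies of these genes without containing one of their TSSs. One, in Oprm1 (chr10:3365688-3368099, 2412 bp, of which 2263 bp are intronic in Oprm1), holds a TSS of Ipcef1, a gene that overlaps Oprm1 on the opposite strand. The other, in Oprd1 (chr4:131669472-131669898, 427 bp), lies entirely in coding exon, 30716 bp downstream of the Oprd1 TSS.

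The promoter windows are shown for the 4 receptor genes whose mark differed between the lines in tChIP-Seq and for Pnoc as the gene without a region. Each runs 5′ to 3′ on the gene's strand, from 250 bases before to 50 bases from the annotated start, in mm9, and capitals mark the motif matches described after them.
Npbwr1 (chr1:5907430-5907729, minus strand): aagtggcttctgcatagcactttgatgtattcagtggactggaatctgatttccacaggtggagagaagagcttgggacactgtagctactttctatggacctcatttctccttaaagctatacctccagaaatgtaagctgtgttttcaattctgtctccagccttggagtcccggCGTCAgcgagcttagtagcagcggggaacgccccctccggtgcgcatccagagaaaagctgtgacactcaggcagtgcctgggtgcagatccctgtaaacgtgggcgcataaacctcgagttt
Oprm1 (chr10:3557683-3557982, minus strand): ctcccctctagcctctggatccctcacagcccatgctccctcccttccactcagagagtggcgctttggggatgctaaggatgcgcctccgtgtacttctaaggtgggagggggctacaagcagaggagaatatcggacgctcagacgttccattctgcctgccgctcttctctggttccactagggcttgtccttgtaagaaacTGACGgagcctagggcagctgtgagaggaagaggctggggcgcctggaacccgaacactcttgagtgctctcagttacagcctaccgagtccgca
Oprd1 (chr4:131700352-131700651, minus strand): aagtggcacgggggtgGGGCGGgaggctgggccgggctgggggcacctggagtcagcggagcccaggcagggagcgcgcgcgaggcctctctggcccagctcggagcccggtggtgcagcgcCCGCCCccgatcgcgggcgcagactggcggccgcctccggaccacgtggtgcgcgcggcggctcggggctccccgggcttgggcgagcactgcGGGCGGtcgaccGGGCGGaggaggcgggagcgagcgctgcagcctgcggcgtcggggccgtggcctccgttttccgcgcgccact
Oprl1 (chr2:181449499-181449798, plus strand): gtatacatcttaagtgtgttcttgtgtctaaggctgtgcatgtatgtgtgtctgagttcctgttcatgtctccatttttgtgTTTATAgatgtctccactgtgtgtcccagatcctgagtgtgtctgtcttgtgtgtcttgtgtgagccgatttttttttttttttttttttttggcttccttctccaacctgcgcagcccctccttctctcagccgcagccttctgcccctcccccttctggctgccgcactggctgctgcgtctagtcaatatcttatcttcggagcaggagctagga
Pnoc (chr14:66043997-66044296, minus strand): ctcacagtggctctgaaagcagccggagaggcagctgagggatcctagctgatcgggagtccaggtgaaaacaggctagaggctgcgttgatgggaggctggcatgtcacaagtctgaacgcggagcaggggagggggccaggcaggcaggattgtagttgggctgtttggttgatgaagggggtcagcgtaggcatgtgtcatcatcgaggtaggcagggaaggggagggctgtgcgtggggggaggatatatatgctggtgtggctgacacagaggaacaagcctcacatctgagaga

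Motifs were searched on both strands, and the matches in the windows of all but 1 of the genes are described. The CRE core TGACG, the site of CREB-family factors, was found once in Npbwr1 at position -73 and in Oprm1 at position -45, where -1 is the base before the start. It occurs in 23.3% of the windows of all 22227 protein-coding genes. The Sp1 box GGGCGG, in 44.0% of all windows, was found at 4 places in Oprd1 and at 3 in Oprk1. The TATA box TATAAA (13.4%) was found in Oprl1 at position -168 and in Pdyn at position -42. The right part GGACAG of the motif bound by the neuronal gene repressor REST (22.4%) was in Oprk1 at position -9. The Pnoc window held no match to these motifs. Such matches are descriptions of the letters in these windows.

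The windows also differed in their content of CpG dinucleotides. The ratio of observed to expected CpG had a median of 0.76 over the 13284 protein-coding genes with a TSS region and of 0.19 over the 8943 without one. The ratio was 0.93 for Oprd1. It was lower in Npbwr1 at 0.51, Oprm1 at 0.47, Pdyn at 0.41, Pnoc at 0.38, Oprl1 at 0.35 and Oprk1 at 0.32. Pnoc, which has no region, thus lay between genes that have one. Over the whole TSS region, Npbwr1 had a ratio of 0.80 and lay at percentile 90.8 of all regions, whereas Oprl1, at 0.16, lay at percentile 0.97.

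The first comparison asks how the mark differs between Camk2a-positive neurons and cortex as a whole, as the lines were set against each other in tChIP-Seq. The receptor genes Oprm1, Oprd1, Oprl1 and Npbwr1 were higher in Camk2a than in Rosa tChIP-Seq, by a log2 fold change (log2FC) of 1.17 to 1.56, and no region of the 7 was lower. The kappa receptor gene Oprk1 and the precursor genes Penk and Pdyn were not past the threshold, an adjusted p under 0.01 in edgeR's quasi-likelihood test with Benjamini-Hochberg adjustment over all regions. Of all 17993 regions, 17.0% were called higher and 14.6% lower in this comparison, against 4 and 0 of these 7. Of all calls, 53.9% were thus higher, and 43.7% when counts were scaled by library totals alone, with the same 4 regions called. The median log2FC was 1.17 over the 7 regions and 0.00 over all regions, and the sign was positive in all 7.

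For Oprm1, the receptor on which morphine acts, the 3 Rosa tChIP-Seq libraries had 6.78, 3.58 and 7.22 CPM and the 3 Camk2a tChIP-Seq libraries 20.0, 18.8 and 12.9 CPM. All Camk2a libraries lay above all Rosa libraries, although 1 of the Camk2a libraries was well below the other 2 and the Rosa values rest on counts of 6 to 13. The log2FC was 1.56 (SE 0.265, adjusted p = 6.63e-07), which is 2.95-fold, and it ranged from 1.31 to 1.72 when single libraries were left out. It ranked 188 of all regions.

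For Oprd1, the receptor for enkephalins, the Rosa libraries had 17.7, 21.5 and 9.18 CPM and the Camk2a libraries 43.6, 43.3 and 47.1 CPM. The groups did not overlap, and the spread lay in the Rosa line, where replicate 3 was lowest. The log2FC was 1.45 (SE 0.165, adjusted p = 4.03e-12), or 2.73-fold, and without that library it was 1.20. For Oprl1, the nociceptin receptor, the values were 20.9, 13.7 and 21.0 CPM in Rosa and 44.6, 44.0 and 45.7 CPM in Camk2a. The Camk2a libraries lay close together and again above every Rosa library, with a log2FC of 1.27 (SE 0.154, adjusted p = 3.55e-11).

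For Npbwr1, the Rosa libraries had 8.35, 9.54 and 9.18 CPM and the Camk2a libraries 17.7, 22.0 and 21.0 CPM. Neither group had a library that stood apart, and they did not overlap, although the Rosa values rest on counts of 14 to 16. The log2FC was 1.17 (SE 0.221, adjusted p = 7.1e-06), and the range on leaving out 1 library was narrow, from 1.10 to 1.26. The calls of these 4 regions held in all alternatives in which they were tested.

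**Figure D1:**
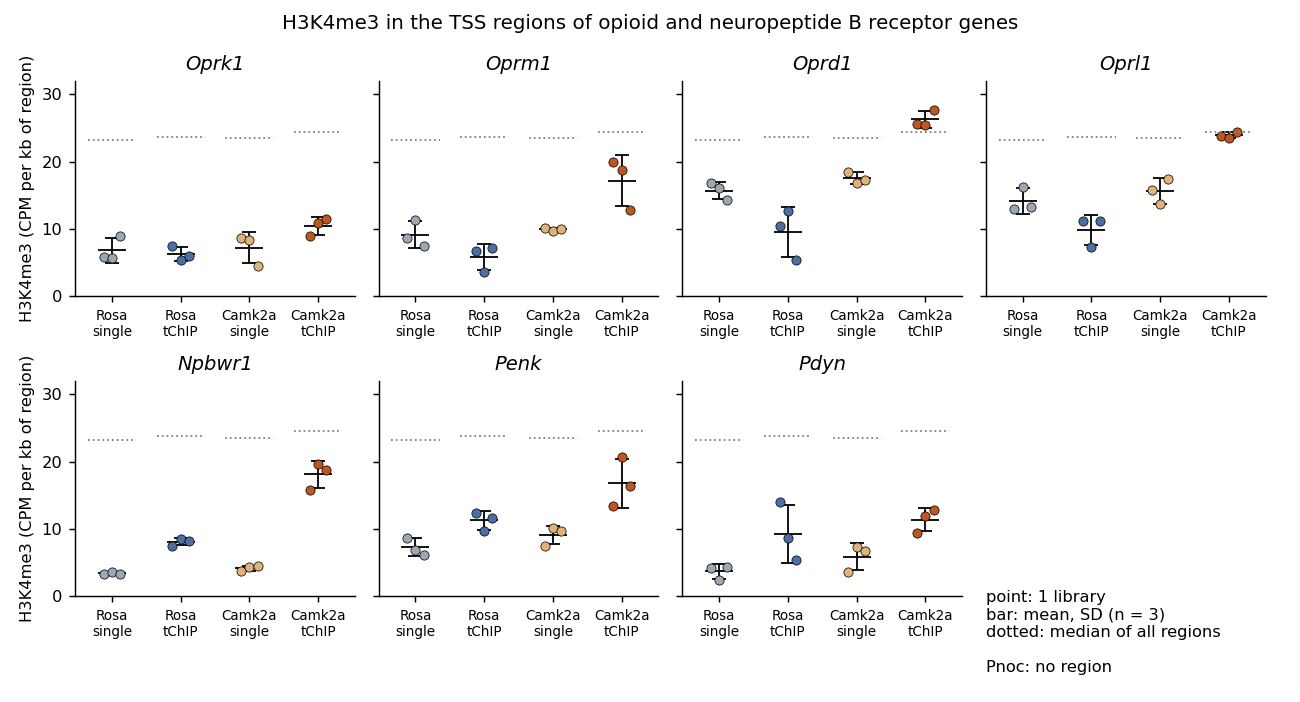
H3K4me3 in CPM per kb of region width in the TSS region of each gene, with 1 point per library, the mean and SD of 3 libraries as black bars and the median of all regions as a dotted line. In all genes but Pdyn the 3 Camk2a tChIP-Seq points sit above all points of the other groups. The gap is small in Penk (13.4 against 12.4 in Rosa tChIP-Seq) and smallest in Oprk1 (8.98 against 8.96 in Rosa single ChIP-Seq). In Pdyn the tChIP-Seq points of both lines overlap.

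Among the genes not called, Penk had 16.7, 13.1 and 15.7 CPM in the Rosa libraries and 18.0, 27.8 and 22.1 CPM in the Camk2a libraries. The groups did not overlap, but the lowest Camk2a value was close to the highest Rosa value. The log2FC was 0.57 (95% interval 0.18 to 0.95, adjusted p = 0.0137), and it was called in 1 of 12 alternatives, without replicate 1 of Camk2a tChIP-Seq (adjusted p = 0.00249, in a range up to 0.145). For Oprk1, with counts of 7 to 11 in Rosa and 21 to 24 in Camk2a tChIP-Seq, the log2FC was 0.71 (95% interval 0.07 to 1.35, adjusted p = 0.0715). For Pdyn, with counts of 4 to 13 and 14 to 17, the libraries overlapped in CPM and the log2FC was 0.24 (95% interval -0.48 to 0.96, adjusted p = 0.645). These intervals include changes as large as that of Npbwr1 for Oprk1 but not for Penk or Pdyn.

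The regions inside the genes moved in opposite directions. The Ipcef1 TSS region in Oprm1 had 19.8, 14.9 and 18.4 CPM in Rosa and 57.4, 63.5 and 58.9 CPM in Camk2a tChIP-Seq. The groups were far apart, with a log2FC of 1.75 (SE 0.144, adjusted p = 3.07e-18), rank 78 of all regions and larger than that of the Oprm1 TSS region 190549 bp away. The coding-exon region of Oprd1 was lower in Camk2a, with 6.26, 6.56 and 6.56 CPM against 3.28, 1.08 and 2.58 CPM and a log2FC of -1.43 (SE 0.402, adjusted p = 0.00237). This region holds only 3 to 12 counts per library in tChIP-Seq, and its call was lost with DESeq2 (adjusted p = 0.0208) and without replicate 2 of Camk2a tChIP-Seq (adjusted p = 0.0300), in a range from 0.000959 to 0.0300 over its alternatives. Its CpG ratio of 0.90 lay at percentile 97.8 of all regions. At Oprd1 the mark was thus higher at the TSS and lower in the exon in Camk2a than in Rosa tChIP-Seq. The exon region had means of 6.46 CPM in Rosa and 2.31 CPM in Camk2a tChIP-Seq, and of 2.34 and 2.60 CPM in single ChIP-Seq. Between the assays it was called higher in tChIP-Seq in Rosa mice (log2FC 1.43, edgeR adjusted p = 8.21e-05). In Camk2a mice it was not called (log2FC -0.15).

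Single ChIP-Seq sets the same lines against each other without the FLAG step. None of the 7 regions was called, with edgeR or with DESeq2, and 2 (Penk and Pdyn) had an unadjusted p under 0.05 in edgeR. Of all regions 0.928% were called higher and 1.22% lower, and the higher share of the calls went from 43.3% to 77.3% with library totals. The log2FCs were 0.08 for Oprm1 (95% interval -0.25 to 0.42), 0.15 for Oprd1 (-0.04 to 0.35), 0.12 for Oprl1 (-0.08 to 0.32) and 0.29 for Npbwr1 (-0.20 to 0.78). Each of these intervals ends below the log2FC of the same gene in tChIP-Seq. For Penk the value was 0.32 (0.00 to 0.64), for Pdyn 0.71 (0.04 to 1.38) and for Oprk1 0.12 (-0.33 to 0.57). Pdyn had the largest value of the 7 here and the smallest in tChIP-Seq, from counts of 7 to 15 per single ChIP-Seq library.

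**Figure D2:**
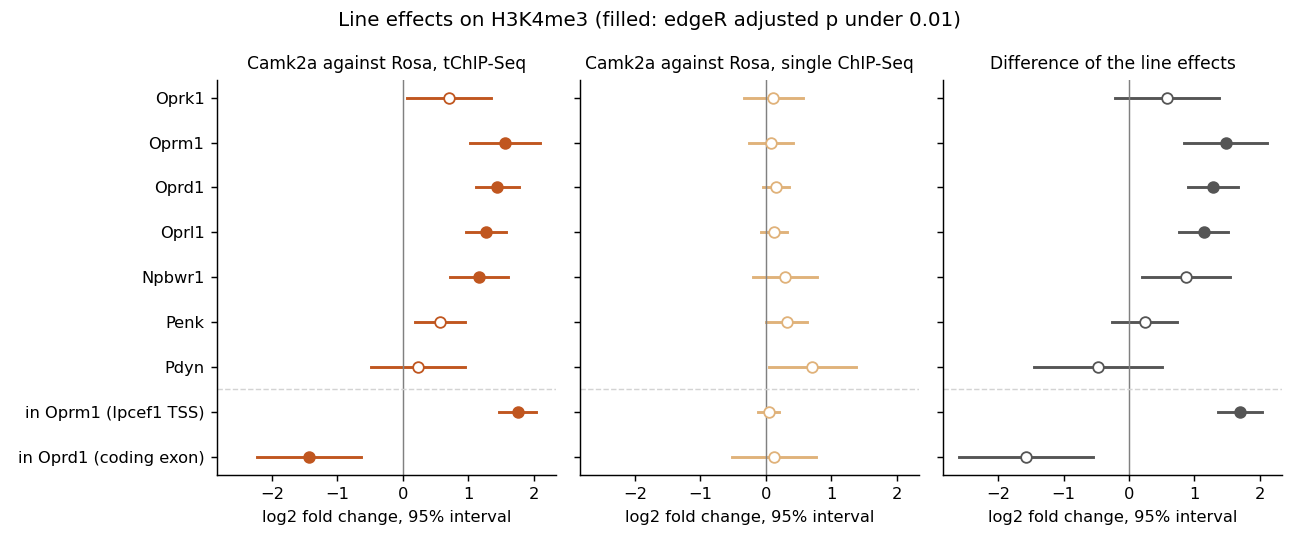
Log2 fold changes of Camk2a against Rosa mice in each assay, and their difference (interaction term), for the 7 TSS regions and, under the dashed line, the regions inside Oprm1 and Oprd1. Points are edgeR estimates with 95% intervals, filled where the adjusted p is under 0.01: 4 TSS regions are filled for tChIP-Seq, none for single ChIP-Seq and 3 for the difference.

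Whether the effects of line differ between the assays was tested as the interaction over all 12 libraries. It was called for Oprm1 (1.48, SE 0.322, adjusted p = 4.41e-05), Oprd1 (1.29, SE 0.195, adjusted p = 2.29e-09) and Oprl1 (1.14, SE 0.191, adjusted p = 5.64e-08), in which the effect in tChIP-Seq was the larger. Of all regions, 13.7% were called with a positive and 13.2% with a negative interaction, that is, a more positive or more negative line effect in tChIP-Seq. The positive share of the calls was 50.9%, or 38.9% with library totals. The interaction of Npbwr1 was 0.87 (95% interval 0.19 to 1.55, adjusted p = 0.0362) and did not pass the threshold in any alternative at that threshold. It was 0.58 for Oprk1 (-0.21 to 1.38), 0.24 for Penk (-0.26 to 0.74) and -0.48 for Pdyn (-1.46 to 0.50). For these 3 genes a difference between the effects in the assays was not called, and the part of depth in this was not tested. The interaction was 1.70 for the Ipcef1 region and -1.58 for the exon region of Oprd1 (adjusted p = 0.0102).

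**Figure D3:**
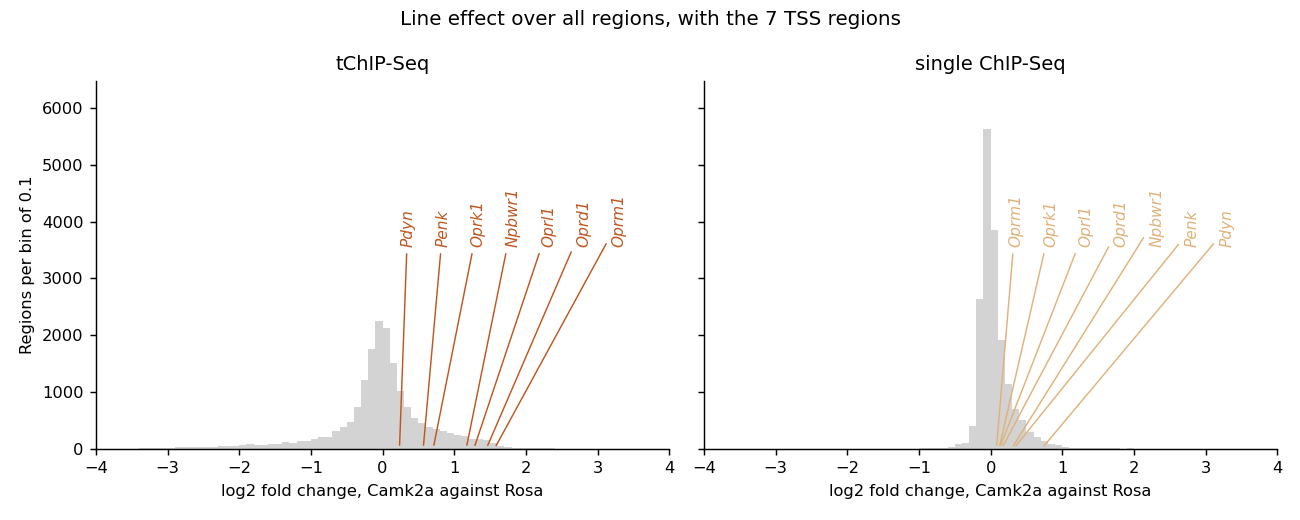
Number of regions per bin of 0.1 in the log2FC of Camk2a against Rosa mice, over all 17993 regions, for each assay, with lines leading to the values of the 7 TSS regions. In tChIP-Seq the values lie between 0.24 (Pdyn, exceeded by 26.8% of all regions) and 1.56 (Oprm1, exceeded by 1.04%). In single ChIP-Seq they lie between 0.08 (Oprm1) and 0.71 (Pdyn).

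Within a line, tChIP-Seq was also set against single ChIP-Seq, which compares the same line with and without the FLAG step. In the Camk2a line that step also selects tagged neurons. In the Rosa line, Npbwr1 was higher in tChIP-Seq with a log2FC of 1.25 (SE 0.282, adjusted p = 3.42e-05), as were Pdyn (1.43, SE 0.397, adjusted p = 0.000848) and Penk (0.65, SE 0.202, adjusted p = 0.00306). Oprd1 (-0.70, SE 0.162, adjusted p = 6.62e-05) and Oprl1 (-0.52, SE 0.157, adjusted p = 0.00243) were lower. Thus the 3 called higher and 2 called lower of 7 stand against 24.7% and 22.5% of all regions, where library totals moved the higher share of calls from 52.3% to 67.7%. Oprm1, at -0.67 (95% interval -1.19 to -0.14, adjusted p = 0.0252), and Oprk1, at -0.05 (-0.68 to 0.57), were not called. Several of these calls were lost when a library was left out. That of Oprd1 was lost without replicate 3 of Rosa tChIP-Seq (log2FC -0.45, adjusted p = 0.0253, the highest of its alternatives, which began at 2.9e-05). Without replicate 2 of Rosa tChIP-Seq the adjusted p of Oprl1 was 0.0939 (log2FC -0.35), and without replicate 1 that of Pdyn was 0.105 (log2FC 0.99) and that of Penk 0.0480 (log2FC 0.56), each the highest value over its alternatives. The calls of Oprl1, Pdyn and Penk were also lost without replicate 2 of Rosa single ChIP-Seq, that of Penk without replicate 3 of either assay, those of Oprl1 and Penk with DESeq2, and that of Oprl1 with library totals (adjusted p = 0.0177). For Penk, whose call was lost on leaving out any 1 of 4 libraries, the log2FC stayed between 0.56 and 0.79 whichever library was left out. Of the 7 regions, 2 to 5 were called when 1 library was left out.

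In the Camk2a line, tChIP-Seq gave more of the mark than single ChIP-Seq in 6 of the 7 regions and less in 0, where 25.3% of all regions were higher and 22.6% lower. Npbwr1 changed most, from 4.18, 4.77 and 4.98 CPM in single ChIP-Seq to 17.7, 22.0 and 21.0 CPM in tChIP-Seq. No library of either group came near the other, and the log2FC of 2.11 (SE 0.207, adjusted p = 2.33e-18), or 4.31-fold, ranked 114 of all regions. The other values were 0.94 for Pdyn, 0.88 for Penk, 0.80 for Oprm1, 0.62 for Oprl1 and 0.58 for Oprd1. The call of Pdyn (adjusted p = 0.00829) was kept in 6 of 11 alternatives and was lost with DESeq2 (0.0717) and, among libraries, without replicates 1 and 3 of Camk2a single ChIP-Seq (0.0766 and 0.0116) and replicates 2 and 3 of Camk2a tChIP-Seq (0.0304 and 0.0428), in a range from 0.00652 to 0.0766. For Oprk1 the value was 0.52 (95% interval 0.02 to 1.02, adjusted p = 0.0683). The 3 opioid receptor genes with a called interaction thus had a negative log2FC between the assays in the Rosa line and a positive one in the Camk2a line, although that of Oprm1 in the Rosa line was not called. Npbwr1, Penk and Pdyn were called higher in tChIP-Seq in both lines.

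The assay effect moved with total count over all regions. Over the 20% of regions lowest in total count (0 to 420 in the 12 libraries), the median log2FC of tChIP-Seq against single ChIP-Seq was 0.83 in the Rosa line and 0.56 in the Camk2a line, and in the next 20% (421 to 1507) it was 0.46 and 0.15. Among the 20% with the highest total count it was -0.25 and -0.11. Oprk1 (270 counts), Pdyn (143) and Npbwr1 (356) belong to the lowest group, and Oprm1 (501), Penk (629), Oprd1 (1404) and Oprl1 (1408) to the next. Against the median of their group, Npbwr1, Pdyn and Penk stood higher in both lines and Oprk1 stood lower in both. Oprm1, Oprd1 and Oprl1 stood lower in Rosa and higher in Camk2a mice. The part of total count in these assay effects was not tested. The line effect in tChIP-Seq had a median of 0.00 in the lowest group and -0.13 in the next.

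**Figure D4:**
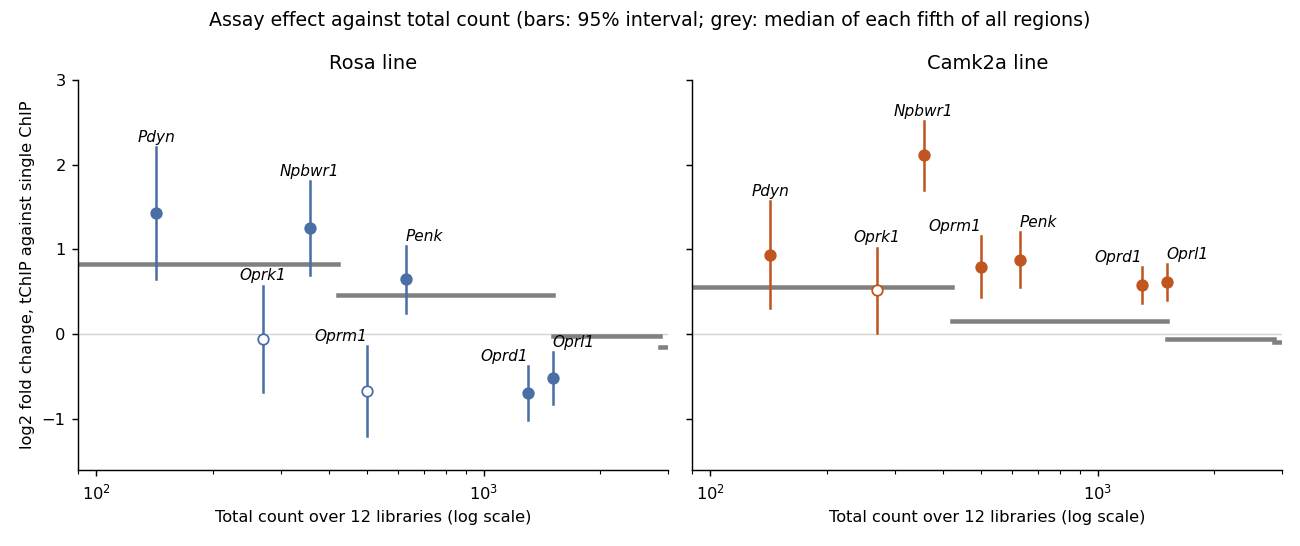
Log2FC between the assays, tChIP-Seq against single ChIP-Seq, by line and plotted against the total count of the region over 12 libraries on a log axis, with 95% intervals, filled points where the edgeR adjusted p is under 0.01, and grey lines at the median of each 20% of all regions by total count (Oprd1 and Oprl1, with nearly equal counts, are drawn slightly apart). Npbwr1, Pdyn and Penk lie above the grey line in both lines of mice, and Oprk1 lies below it in both. Oprm1, Oprd1 and Oprl1 lie below it in Rosa and above it in Camk2a mice.

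Levels were compared between the genes as CPM per kb of region. In Camk2a tChIP-Seq the order was Oprd1 with 26.3 ± 1.25 (SD, n = 3 throughout), Oprl1 with 23.9 ± 0.447, Npbwr1 with 18.1 ± 2.01, Oprm1 with 17.2 ± 3.79, Penk with 16.8 ± 3.63, Pdyn with 11.4 ± 1.76 and Oprk1 with 10.4 ± 1.31 CPM per kb. The libraries of Npbwr1, Oprm1 and Penk overlapped, as did those of Pdyn and Oprk1, while Oprd1 lay above Oprl1, Oprl1 above Npbwr1 and Penk above Pdyn in every library. These orders depend on the division by width. In CPM per region, Oprl1 ranked before Oprd1 there (44.8 and 44.7 CPM) with overlapping libraries, and Npbwr1 ranked 4, after Penk. Pdyn ranked last per region in all 4 groups. In Rosa tChIP-Seq each gene overlapped the next in an order from Penk, with 11.3 ± 1.37, down to Oprm1, with 5.85 ± 1.98 CPM per kb, so that Oprm1 was last of 7 there. In single ChIP-Seq the order was the same in both lines, Oprd1, Oprl1, Oprm1, Penk, Oprk1, Pdyn and Npbwr1. Npbwr1 had the lowest mean in single ChIP-Seq but overlapped Pdyn in both lines, with 3.37 ± 0.237 in Rosa and 4.16 ± 0.371 CPM per kb in Camk2a mice, and it ranked 3 of 7 in Camk2a tChIP-Seq. Among all regions its density stood at percentile 2.3 in Rosa single ChIP-Seq, 7.5 in Rosa tChIP-Seq, 2.2 in Camk2a single ChIP-Seq and 36.0 in Camk2a tChIP-Seq. Only Oprd1 passed the median density of all regions, 24.5 CPM per kb, and only in Camk2a tChIP-Seq.

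The regions with the most similar profiles were named by Pearson's r of log2(CPM + 1) over the 12 libraries, among 13026 TSS regions of other genes, as a description over libraries that share their group and depth. For Npbwr1 they were Ntsr1, a neurotensin receptor (r = 0.993), L3mbtl4 (0.987) and Htr5b, a serotonin receptor (0.983). For Oprd1 they were Cdh12, a cadherin (0.984), Htr2c, a serotonin receptor (0.980), and Reep1 (0.977). For Oprl1 they were Gramd1b (0.985), the shared region of Gm13997 and Pla2g4e (0.978) and Gfra2, a receptor for neurturin (0.976). A high r does not mean a change of the same size. In tChIP-Seq the log2FCs between the lines at these 3 regions were 0.48, 1.30 and 1.16, against 1.27 at Oprl1. For Cdh12, Htr2c and Reep1 they were 0.94, 1.46 and 0.49, against 1.45 at Oprd1. Oprm1 was most like Ndrg4 (0.957), the potassium channel subunit Kcnab1 (0.956) and the postsynaptic scaffold Shank3 (0.953). Penk was most like Rnf220 (0.960), Lgr5 (0.959) and the carbonic anhydrase Car12 (0.951), Pdyn like Alox8 (0.939), Hpse (0.938) and Chadl (0.933), and Oprk1 like Gm5148 (0.884), Crym (0.878) and Sema6d (0.861). Among the 7 genes themselves, r over the 12 libraries was 0.95 between Oprm1 and Oprl1 and 0.91 between Penk and Npbwr1, and lowest, at 0.15, between Oprm1 and Pdyn.

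Genes around these receptors and peptides were taken from lists of related ligands and receptors, of enzymes that process or break down the peptides, and of partners in coupling to Gi/o. In the list of related ligands and receptors, 7 of 14 genes had a TSS region, with a median log2FC of 0.76 between the lines in tChIP-Seq. Of these, 5 were higher in Camk2a than in Rosa mice, 0 were lower and 2 were not called, against 17.0% higher and 14.6% lower of all regions. Pomc, Npb, Npff, Npffr1, Npffr2 and Sstr5 had no region, and Npbwr2 is not annotated. The largest change was at Sstr3, a somatostatin receptor, with 18.3 ± 1.88 CPM in Rosa and 66.2 ± 3.14 CPM in Camk2a tChIP-Seq and a log2FC of 1.86 (SE 0.139, adjusted p = 3.17e-20). The somatostatin receptor genes Sstr1 (0.80) and Sstr2 (0.77) followed. Npw, a ligand of the Npbwr1 receptor, was not called, with a log2FC of 0.08 (adjusted p = 0.877).

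Over all regions 17.0% were higher and 14.6% lower in this comparison, which is the background for the counts of each list. Of the 12 genes for processing and breakdown, which all had a region, 7 were higher, 2 were lower and 3 were not called, with a median of 0.37. Pcsk2, the convertase that cuts dynorphin and enkephalin precursors, rose from 91.3 ± 5.26 to 193 ± 10.6 CPM, with a log2FC of 1.09 (SE 0.0729, adjusted p = 9.81e-23), and Pcsk1n, which encodes an inhibitor of the convertase Pcsk1, changed by 1.06. In the opposite direction, Anpep, an aminopeptidase that degrades enkephalins, fell from 11.1 ± 1.97 to 2.87 ± 1.55 CPM, with a log2FC of -1.96 (SE 0.337, adjusted p = 9.15e-07). The other lower gene was Ece2 (-0.39). Of 27 genes for Gi/o coupling, 26 had a region (Kcnj5 had none), and 15 were higher, 2 were lower and 9 were not called, with a median of 0.31. The genes of the inwardly rectifying potassium channels that these receptors open led, with log2FCs of 1.46 for Kcnj6 (SE 0.0892, adjusted p = 6.07e-25), 1.41 for Kcnj9 and 1.09 for Kcnj3. Gnai2, a Gi alpha subunit (-0.35), and Rgs12 (-0.60) were lower. Between the lines in single ChIP-Seq, 0.928% of all regions were called higher and 1.22% lower. There, 1 region of the first list (Sstr1, 0.31), 0 of the second and 1 of the last (Adcy8, 0.17) were called, both higher in Camk2a mice. Of these genes, those other than the 3 with the largest called change in each list are named for completeness, after their values were seen.

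Markers of cell types moved with the same comparison, in which 17.0% of all regions were higher and 14.6% lower. In tChIP-Seq, 6 of 7 excitatory neuron markers with a region were higher and 0 lower in Camk2a mice, and their summed density went from 112 to 125 CPM per kb in the Rosa libraries to 241 to 253 in the Camk2a libraries. Of 14 inhibitory neuron markers, Slc32a1, Sst, Vip, Npy and Htr3a had no region, and of the other 9, 0 were higher and 6 lower, with summed densities of 107 to 121 and 80.2 to 81.8 CPM per kb. Astrocyte markers (6 of 7 with a region, all 6 lower) summed to 90.2 to 111 and 27.5 to 32.5 CPM per kb, and endothelial markers (6 of 7, all 6 lower) to 80.1 to 84.2 and 19.5 to 22.1. Of the oligodendrocyte markers with a region, 5 were lower, 1 (Mbp) was higher and 1 was not called. Microglial markers had 1 region of 7 genes, at Cd40, which was lower. Penk and Pdyn are also known from striatal projection neurons, whose markers (9 of 10 with a region) summed to 130 to 151 in Rosa and 157 to 172 CPM per kb in Camk2a tChIP-Seq, with 3 higher and 1 lower. The part of these shifts in the values of the opioid and neuropeptide B receptor genes was not tested.

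**Figure D5:**
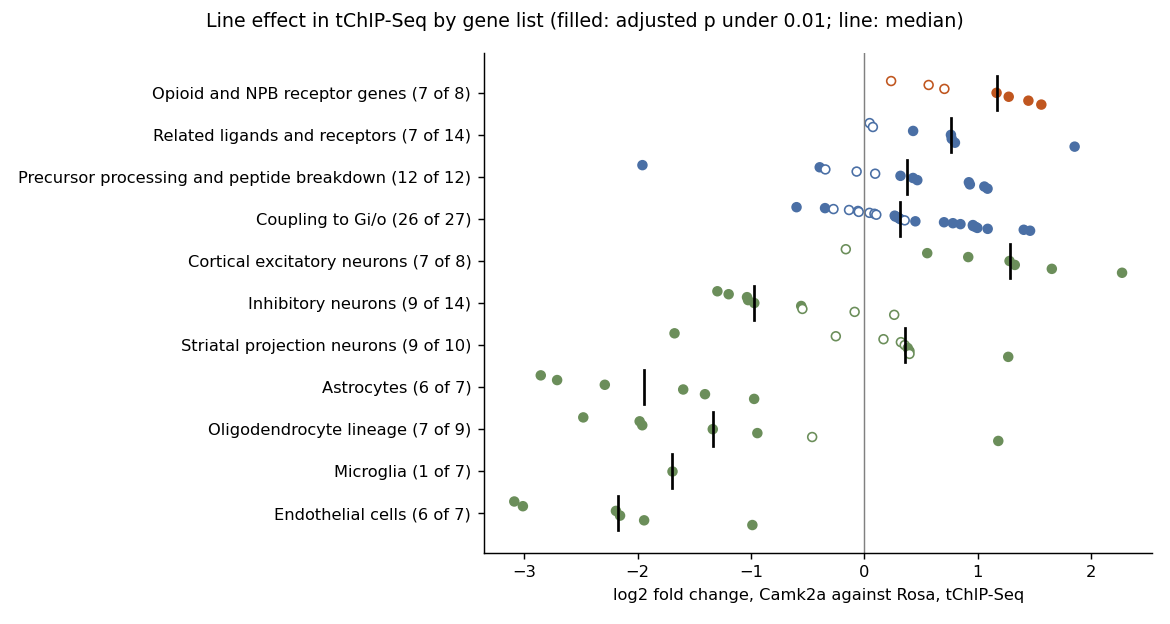
Log2 fold change of Camk2a against Rosa mice in tChIP-Seq for each gene with a TSS region, by list, with the number of genes with a region of all genes in the list, filled points where the edgeR adjusted p is under 0.01 and a black line at the median. The median is 1.17 for the opioid and neuropeptide B receptor genes, 0.76 for related ligands and receptors, 1.28 for excitatory neuron markers and -0.97 for inhibitory neuron markers.

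Pnoc, the precursor of nociceptin, whose receptor gene Oprl1 was among the called regions, was not covered. Its only annotated TSS (chr14, position 66044046, minus strand) lies 65498 bp from the nearest region, which holds the TSS of Zfp395. No region lay within 1000 bp of it, and the outcome was the same when only protein-coding transcripts were used. The absence of a region says only that no peak was listed there, since the regions were peaks called reproducibly and counts outside them were not used here.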

How the data were processed

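H3K4me3 ChIP-Seq counts were analysed for 12 of the 24 samples of the series. According to the methods, the authors aligned reads to mm9, removed duplicates and repeats, called peaks reproducible in triplicate, and deposited for each library a table of raw counts of reads per peak region, with no normalization. How the shared region list was merged is not given in the sources used here. The submitters' processing notes name bcl2fastq 1.8.4, Bowtie2 2.1.0, Bowtie 1.0.0, SAMtools 0.1.19 and bedtools 2.17.0. Groups followed the labels. Regions were assigned to genes by overlap with a GENCODE M1 TSS.

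Each comparison of 2 groups was fitted on its 6 libraries, and the interaction on all 12, with edgeR 4.0.16 (quasi-likelihood test, TMM, no filter on low counts, no covariate) in R 4.3.3, with Benjamini-Hochberg adjustment over all 17993 regions and calls at an adjusted p under 0.01. The code was tested on simulated data. DESeq2 1.42.0, other scalings and filters, a replicate block, a fit of all libraries and leaving out each library were the alternatives. The fold changes are on a log2 scale, intervals cover 95%, and CPM uses TMM factors over the 12 libraries. Figures were drawn with matplotlib 3.10.9 in Python 3.11.15.

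According to the authors, the 3 experiments of each kind were independent, and which animals went into which library is not given in the sources used here. Named were all regions at or inside the 8 genes, up to 3 genes of each list with the largest called change in tChIP-Seq without overlap of the groups, and the 3 most similar regions for each gene (pseudocount of 1 CPM, mean of at least 20 counts per library). The genes and lists were chosen with earlier results of these data known. The promoter window of 1 gene is not reported here.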

Additional observations from a re-analysis of the deposited data

Results flagged for a closer look

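By the interaction test (edgeR, Benjamini-Hochberg adjusted over all regions), the line effect differed between the assays at the Oprm1, Oprd1 and Oprl1 TSS regions. It also differed at the region inside Oprm1 that holds a TSS of another gene, Ipcef1. Of all regions, 13.7% were called with a positive and 13.2% with a negative difference. As log2 effect in tChIP-Seq minus that in single ChIP-Seq, the difference was 1.48 at Oprm1, 1.70 at the Ipcef1 region inside Oprm1, 1.29 at Oprd1 and 1.14 at Oprl1.

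Among the listed genes named beside them, the same difference was 0.48 at Sstr1, 0.65 at Sstr2 and 1.62 at Sstr3 for the somatostatin receptors. It was 1.11 at Pcsk2, 0.93 at Pcsk1n and -1.86 at Anpep for processing and breakdown. For the potassium channel genes it was 1.02 at Kcnj3, 1.57 at Kcnj6 and 1.39 at Kcnj9. Anpep was the one of these with a negative difference. These genes were picked for the largest called line effects in tChIP-Seq, from which the difference is formed. Large differences, and the sign at Anpep, thus follow in part from that choice and are no separate result. Sstr4, a somatostatin receptor gene that was not picked, had a difference of 0.63.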

How the results depend on the processing

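The number of TSS regions called was 4 between the lines in tChIP-Seq, 0 in single ChIP-Seq, 6 between the assays in Camk2a mice and 3 for the interaction, and each stayed within 1.5 times of that under the alternatives run. In Rosa mice, 5 regions were called between the assays, 3 with DESeq2 and 2 to 5 when 1 library was left out, 2 without replicate 2 of Rosa single ChIP-Seq and 3 without replicate 1 or 3 of Rosa tChIP-Seq. The cause was not tested. Leaving out the 40% of regions lowest in count left no TSS region of these genes, so it gave no value. Same-numbered libraries did not deviate together (correlations of at most 0.0446), and with the replicate block the counts were 4, 0, 5, 6 and 3, as without it. Directions that changed were of uncalled regions. Between the assays in Rosa mice Oprk1 was 0.047 with library totals and -0.21 to 0.16 when 1 library was left out. Leaving out 1 library gave -0.0089 to 0.68 for Pdyn between the lines in tChIP-Seq. In single ChIP-Seq it gave -0.033 to 0.35 for Oprk1, -0.030 to 0.28 for Oprm1, -0.00052 to 0.11 for Ipcef1 and -0.10 to 0.38 for the exon region of Oprd1, and for the last -0.51 to 0.17 between the assays in Camk2a mice. Counts were low at Oprk1, Oprm1, Pdyn and the exon region of Oprd1, each with libraries of 3 to 13 counts in Rosa or Camk2a tChIP-Seq. Npbwr1 had 14 to 16 counts per Rosa tChIP-Seq library. The part of these low counts in the results was not tested.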
